A study of Mus musculus with 26 samples.

Results

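Dorsal root ganglia of mice with a neuronal conditional knockout of the aryl hydrocarbon receptor gene *Ahr* (cKO) were compared with those of control mice after sham surgery. The comparison used 8 of the 26 RNA sequencing libraries of the study, chosen by their labels: 4 cKO and 4 control libraries, being 1 operated (ipsilateral) and 1 unoperated (contralateral) side from each of 2 mice per genotype. The study also profiled naive ganglia, ganglia after sciatic nerve crush and cultured neurons of the same genotypes, and its title names the receptor's part in axon regeneration as its subject. Both cKO mice were Ahr f/f with the transgene Thy1-CRE(ERT2/EYFP), in which a *Thy1* promoter drives a tamoxifen-inducible Cre recombinase and a yellow fluorescent protein in neurons. Control mouse 1 was Ahr f/+ and control mouse 2 was Ahr fl/fl, and neither carried Cre, so the genotypes differed in the transgene as well as in the deletion. All 8 libraries came from male mice and from bulk lumbar ganglia (L4-L6) taken 1 day after the surgery. The labels of the sham mice state neither age nor tamoxifen; for the naive and crush mice, the study's design text gives 100 mg/kg daily for 5 days at 28 weeks of age and collection from 5 weeks later.

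AhR is a cytoplasmic receptor held by chaperones. When a small molecule binds it, it enters the nucleus, pairs with ARNT and switches on genes such as *Cyp1a1*, *Cyp1b1*, *Ahrr* and *Tiparp*, some of which feed back to limit it. Dorsal root ganglia hold the cell bodies of sensory neurons, wrapped by satellite glia, and after an axon is cut these neurons start a growth programme that includes the transcription factor ATF3 and neuropeptides such as galanin.

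The mouse was the unit of replication in the comparison per mouse. There the counts of both sides were summed per mouse and tested with edgeR's quasi-likelihood test over 23209 genes. Each side, and the difference between sides, was tested over 22160 genes in a fit of the 8 libraries with 1 mean per genotype and side. A mouse counted once in each side's comparison, but that fit held no term for the mouse. Its spread estimate therefore treated the 2 sides of an animal as independent. Levels are given as CPM, each count divided by its TMM-adjusted library size. With 2 mice against 2, an exact permutation test of a single value cannot give a two-sided p below 0.333, so the p-values here rest on a spread estimated across genes. In bulk tissue, fewer cells of a type and less RNA per cell cannot be told apart.

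Libraries held 39306414 to 58751270 counts, with counts for 27723 to 28543 genes. Markers of sensory neurons summed to 7796 to 8606 CPM in every library and those of satellite glia to 2324 to 2681 CPM, as the tissue label says. Several libraries stood apart. Summed markers of skeletal muscle (8 genes, none at 0) reached 2061 CPM in the operated side of cKO mouse 2, against 4.08 to 368 CPM in the other 7 libraries. Fat markers (6 genes) stood at 69.2 CPM in the same library and at 54.3 CPM in the unoperated side of control mouse 1, against 1.70 to 15.6 CPM elsewhere. Neutrophil markers (8 genes, none at 0) were at 744 CPM in the operated side of cKO mouse 1 and at 284 to 384 CPM in the other cKO libraries, above the 171 to 274 CPM of the controls. Interferon-stimulated genes summed to 1141 CPM in the operated side of control mouse 2, against 356 to 583 CPM elsewhere. In the unoperated side of cKO mouse 1, red blood cell markers summed to 247 CPM, against 514 to 868 CPM elsewhere, and 8 of 10 endothelial markers were at their lowest. In the operated side of cKO mouse 1, 9 of 10 markers of large-diameter and proprioceptive neurons were at their lowest.

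**Figure D1:**
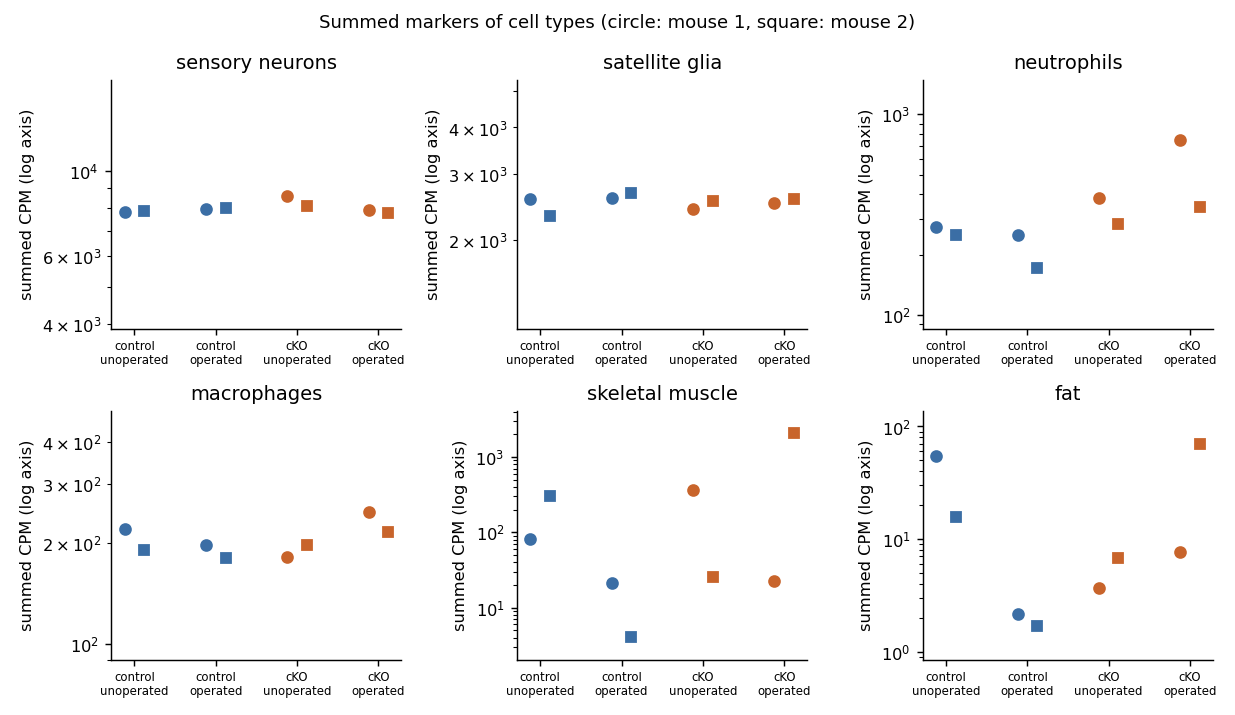
Summed CPM of marker lists for 6 cell types (log axis) in the 8 libraries; circles are mouse 1, squares mouse 2, blue control and orange cKO. Neuron and satellite glia markers were level across libraries, whereas muscle markers ranged from 4.08 to 2061 CPM.

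Promoter sequences are shown for 3 genes that the results turn on, *Cadps*, *Fos* and *Gal*, since AhR and ARNT bind DNA at sites built on the core GCGTG. The 250 bases before each gene's start are given 5′ to 3′ on the gene's strand, from RefSeq on GRCm38.p6, with the core (GCGTG, or CACGC for the other strand) in capitals. *Thy1* had no entry in that table.
Cadps: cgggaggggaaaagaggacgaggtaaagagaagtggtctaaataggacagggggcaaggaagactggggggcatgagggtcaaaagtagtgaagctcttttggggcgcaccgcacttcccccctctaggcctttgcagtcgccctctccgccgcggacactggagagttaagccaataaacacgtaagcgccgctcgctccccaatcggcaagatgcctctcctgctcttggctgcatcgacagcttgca
Fos: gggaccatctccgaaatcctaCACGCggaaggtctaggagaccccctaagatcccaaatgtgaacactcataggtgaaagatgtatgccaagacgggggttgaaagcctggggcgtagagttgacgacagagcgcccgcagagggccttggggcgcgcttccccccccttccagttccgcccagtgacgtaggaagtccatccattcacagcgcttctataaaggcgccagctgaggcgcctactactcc
Gal: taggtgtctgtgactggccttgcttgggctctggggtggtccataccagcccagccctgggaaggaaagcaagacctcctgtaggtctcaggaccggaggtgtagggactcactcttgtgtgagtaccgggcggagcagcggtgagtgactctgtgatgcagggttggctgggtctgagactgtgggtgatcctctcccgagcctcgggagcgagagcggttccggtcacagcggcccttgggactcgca
The windows lie at chr14:12823080-12823329 (minus strand), chr12:85473640-85473889 (plus strand) and chr19:3414545-3414794 (minus strand). The core occurred 1 time in the *Fos* window, on the minus strand, and not in the windows of *Cadps* and *Gal*. Of all 32851 promoter windows of the same length in the table, 28.2% held it on either strand. Of 25 named genes, 14 had a window, and 6 of these genes (42.9%) held it in at least 1 of their windows. The former share is by window and the latter by gene, so they cannot be compared directly. A match is a description of these letters and no evidence of binding.

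*Ahr* itself was examined first. Its CPM in the control libraries was 14.1 and 13.0 on the unoperated side and 14.8 and 18.5 on the operated side of mice 1 and 2, and in the cKO libraries 14.3 and 13.9 on the unoperated side and 16.5 and 17.5 on the operated side. The genotypes overlapped, and the log2 fold change per mouse was 0.06 (SE 0.08, edgeR adjusted p = 0.914). *Ahr* (ENSMUSG00000019256.17; chromosome 12, 35497974 to 35535038, minus strand, GRCm38) was counted as 1 gene, so the loss of a floxed exon could not be seen, nor could *Ahr* of neurons be told from *Ahr* of other cells. On the unoperated side the fold change was 0.06 (SE 0.12) and on the operated side 0.03 (SE 0.12).

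The receptor's partners and targets gave few differences. Of the 8 genes tested among AhR, its partners and regulators, none had an unadjusted p under 0.05, against 5.98% of all genes tested, and their median log2 fold change was 0.05, beside 0.00 over all genes. *Arnt*, the partner that AhR needs to bind DNA, was at 16.5 to 19.4 CPM in the controls and 19.4 to 21.9 CPM in cKO, a fold change of 0.15 (SE 0.09). Of 9 AhR target genes tested, 7 were below 0, with a median of -0.085. On the unoperated side *Tiparp* alone had an unadjusted p under 0.05, and it was higher in cKO (3.4% of all genes there were). Per mouse, 1 of the 9 had an unadjusted p under 0.05: *Cyp1b1*, a cytochrome P450 of xenobiotic and steroid metabolism, which was higher in cKO. Its level was 32.5 to 36.4 CPM in the controls and 35.7, 38.5, 54.2 and 39.6 CPM in cKO (unoperated sides of mice 1 and 2, then operated sides), with overlap between genotypes and a fold change of 0.31 (SE 0.09, unadjusted p = 0.017 and adjusted p = 0.808 by edgeR). It was not at an unadjusted p under 0.05 once control mouse 2 or cKO mouse 1 was left out. *Cyp1a1*, the classic inducible target, was scarce everywhere: 0.30 to 0.45 CPM in the controls and 0.15 to 0.35 CPM in cKO. *Ahrr*, the receptor's repressor, was at 2.68 to 4.14 CPM against 2.99 to 3.78 CPM, and *Tiparp*, which ADP-ribosylates AhR, at 21.8 to 24.3 CPM against 23.0 to 27.3 CPM. *Ugt1a6a* and *Ugt1a6b*, overlapping genes of the glucuronidation pathway, had nearly the same counts in each library and cannot be told apart.

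Per mouse, no gene passed an adjusted p under 0.05 by edgeR (0 of 23209, 0%), and 1387 genes (5.98%) had an unadjusted p under 0.05, 882 higher in cKO (3.8%) and 505 lower (2.18%). DESeq2 on the same sums called 43 genes, 35 higher (0.151%) and 8 lower (0.0345%), and limma-voom with the mouse as a random effect called 5. On the operated side edgeR called 1 gene (0.00451% of 22160), *Cadps*, while 1144 genes were higher (5.16%) and 538 lower (2.43%) at an unadjusted p under 0.05, 1682 in all (7.59%); DESeq2 called 153. On the unoperated side no gene passed by edgeR (0%), while 754 were higher (3.4%) and 406 lower (1.83%) at an unadjusted p under 0.05, 1160 in all (5.23%); DESeq2 called 31. The 4 cKO libraries lay wholly above the 4 control libraries in 562 genes (2.42%) and wholly below them in 504 (2.17%), 1066 in all (4.59%).

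*Cadps* fell on the operated side. It encodes CAPS1, a protein that primes dense-core vesicles for release. In the controls *Cadps* was at 550.0 and 538 CPM on the unoperated side and 579 and 494 CPM on the operated side; in cKO it was at 285 and 282 CPM on the unoperated side and 269 and 254 CPM on the operated side. Every cKO library was below every control library, and the 4 cKO libraries lay close to each other. The fold change on the operated side was -1.04 (SE 0.08, edgeR adjusted p = 0.0372). On the unoperated side it was -0.94 (SE 0.08, adjusted p = 0.0694) and per mouse -1.0 (SE 0.06, adjusted p = 0.177), with mouse means of 540.3 ± 33.9 CPM in control and 273 ± 6.12 CPM in cKO (SD, n = 2). The difference between sides was -0.10 (SE 0.11). The operated-side call ended when control mouse 1, control mouse 2 or cKO mouse 2 was left out (adjusted p = 0.142, 0.0672 and 0.123), with the replicate number as a block (0.125) and with the libraries of that side alone (0.844), while the fold change stayed between -1.16 and -0.93. *Cadps* (ENSMUSG00000054423.14) spans chromosome 14, 12372563 to 12823079, on the minus strand of GRCm38. The gene model *Gm48239* lies within that span on the plus strand, with 15.03 to 18.2 CPM in control and 7.45 to 8.62 CPM in cKO; it was singled out after its values were seen and held 3.1% of the count of *Cadps*. Whether the counting used strand is not given in the sources used here, so its counts are uncertain.

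Other genes of regulated exocytosis did not share that pattern. Of 26 tested, *Cadps* included, 2 had an unadjusted p under 0.05, both lower in cKO (2.18% of all genes were), and the list's median was -0.04. The count was 1 without control mouse 1, control mouse 2 or cKO mouse 1, and 4 without cKO mouse 2, where 2 others were higher. *Cadps2*, the paralogue of *Cadps*, was at 40.1 to 53.7 CPM in control and 46.2 to 57.8 CPM in cKO, with a fold change of 0.05 (SE 0.08). Among 12 genes for dense-core vesicle cargo and processing, 2 were higher and 1 lower at an unadjusted p under 0.05 (3.8% and 2.18% of all genes), and none was without cKO mouse 1. *Chgb*, a granin packed in these vesicles, was lower (-0.17, SE 0.07), and *Pam*, which amidates neuropeptides, was higher (0.20, SE 0.08), with 254 and 217 CPM on the operated side of cKO against 175 to 198 CPM in the controls.

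**Figure D2:**
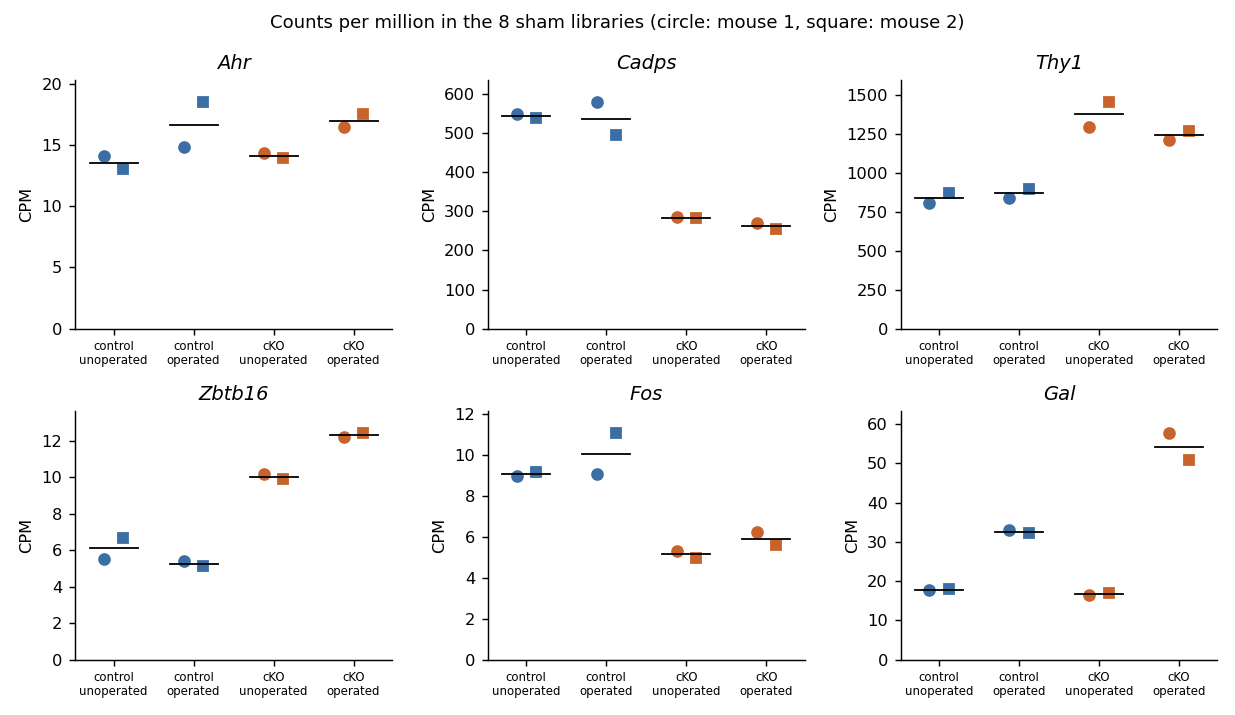
CPM of *Ahr*, *Cadps*, *Thy1*, *Zbtb16*, *Fos* and *Gal* in the 8 libraries, by genotype and side; circles are mouse 1, squares mouse 2 and lines the mean of 2 mice. *Cadps* stood at 494 to 579 CPM in control and 254 to 285 CPM in cKO, while *Ahr* overlapped between genotypes.

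*Thy1*, a surface glycoprotein of neurons whose promoter drives the cKO transgene, was higher in cKO. Its level was 807 and 872 CPM on the unoperated side and 839 and 897 CPM on the operated side of the controls, and 1296 and 1451 CPM on the unoperated side and 1208 and 1270.0 CPM on the operated side of cKO. All cKO libraries were above all control libraries. The fold change per mouse was 0.60 (SE 0.07, edgeR adjusted p = 0.689), with 0.71 on the unoperated and 0.51 on the operated side. Counts per gene do not separate transcripts of the endogenous gene from any transgene transcript that holds *Thy1* sequence.

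Among the 12 genes higher in cKO that the naming rule chose by the smallest p per mouse, *Zbtb16* came first; it encodes the zinc-finger repressor PLZF. It was at 5.52 and 6.69 CPM on the unoperated side and 5.40 and 5.13 CPM on the operated side of the controls, and at 10.2 and 9.93 CPM and then 12.2 and 12.4 CPM in cKO. The genotypes did not overlap, and the gap was wider on the operated side. The fold change was 0.97 (SE 0.10, unadjusted p = 0.000118, adjusted p = 0.549 by edgeR).

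The other 10 genes of that group, *Thy1* aside, had fold changes of 0.25 to 1.04 and adjusted p-values of 0.808 by edgeR. *Klf9*, a glucocorticoid-responsive Krüppel-like factor, was at 74.6 to 83.9 CPM in control and 91.3 to 95.2 CPM in cKO (0.25, SE 0.05). *Fam107a*, a stress-responsive actin regulator, was at 16.4 to 22.2 CPM against 25.3 to 35.8 CPM (0.58, SE 0.12). *Cd163*, the haemoglobin scavenger receptor of resident macrophages, was at 3.55 to 4.52 CPM against 5.19 to 7.30 CPM (0.61, SE 0.11). Of 12 macrophage markers 3 were higher at an unadjusted p under 0.05 (*Cd163*, *Tyrobp* and *Itgam*), against 3.8% of all genes, and 1 was without control mouse 2 or without cKO mouse 1. *Tyrobp* (27.1 CPM) and *Itgam* (14.2 CPM) were highest in the operated side of cKO mouse 1, the library with the most neutrophil markers, whose part in the result was not tested. The summed macrophage level overlapped between the genotypes at 180.0 to 221 CPM in control and 182 to 247 CPM in cKO. *Comp*, a matrix protein of cartilage and tendon, was at 26.1 to 34.1 CPM against 34.6 to 47.9 CPM (0.41, SE 0.08). *Bex1*, an adaptor linked to nerve growth factor signalling, was at 5.90 to 7.56 CPM against 8.81 to 17.9 CPM, with the highest value on the operated side of cKO mouse 1 (0.81, SE 0.16). *Mmd* (0.44) and *Nbeal1* (0.31) had smaller differences. The processed pseudogenes *Hspd1-ps3* (1.04, SE 0.17) and *Rpl17-ps10* (0.75, SE 0.15) can share reads with their parent genes, so their counts are uncertain. The mitochondrially encoded *mt-Nd2* is described with its list. *Hspd1*, the parent of the former, had a fold change of -0.03 (SE 0.05).

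The 12 genes lower in cKO with the smallest p comprised *Cadps* and 11 others. *Fos*, the immediate early gene induced by neuronal activity, was at 8.96 and 9.17 CPM on the unoperated side and 9.05 and 11.1 CPM on the operated side of the controls. In cKO it was at 5.32 and 4.98 CPM, then 6.22 and 5.60 CPM, below every control library on both sides. The fold change was -0.78 (SE 0.11, unadjusted p = 0.000639, adjusted p = 0.808 by edgeR). *Fos* lies on chromosome 12, 85473890 to 85477273, and its promoter is the one of the 3 shown that held the AhR core.

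Glial genes were in the same group. *Sox10*, the transcription factor that defines satellite glia and Schwann cells, was at 97.8, 82.8, 79.3 and 102 CPM in control (unoperated, then operated sides) and 75.4, 72.8, 73.6 and 73.5 CPM in cKO. The genotypes did not overlap and the fold change was -0.29 (SE 0.05). *Acsbg1*, an acyl-CoA synthetase abundant in glia, was at 101 to 108 CPM against 79.2 to 99.8 CPM (-0.21, SE 0.05). Over the 10 satellite glia markers, 2 had an unadjusted p under 0.05, both lower (*Sox10* and *Kcnj10*), against 2.18% of all genes. The count was 3 without control mouse 2 and 1, *Sox10*, without any of the other 3 mice. The median of -0.13 was between -0.21 and -0.04 with 1 mouse left out, and the summed level overlapped.

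The remaining genes of the group differed by -0.67 to -0.20. *Pcdh9*, a neuronal protocadherin, was at 77.8 to 83.6 CPM in control and 59.2 to 71.5 CPM in cKO (-0.34, SE 0.05). *Srebf1*, which controls lipid synthesis, was at 91.2 to 97.8 CPM against 74.5 to 84.1 CPM (-0.25, SE 0.06), but the overlapping *Rai1* held counts equal to 70.4% of its own. *Lrrc4b*, a synaptic adhesion protein, had 13.1 to 15.2 CPM against 8.93 to 11.4 CPM (-0.44, SE 0.10). *Zfp36* encodes tristetraprolin, which destabilises cytokine messenger RNAs, and was at 10.9 to 13.7 CPM against 7.20 to 9.91 CPM (-0.53, SE 0.09); the overlapping *Gm44710* held counts equal to 83.7% of its own. *Aldh1a7* (-0.63), *Mro* (-0.67), *Pnma2* (-0.26) and *Mtss1l* (-0.20) completed it, each with an adjusted p of 0.808 by edgeR.

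**Figure D3:**
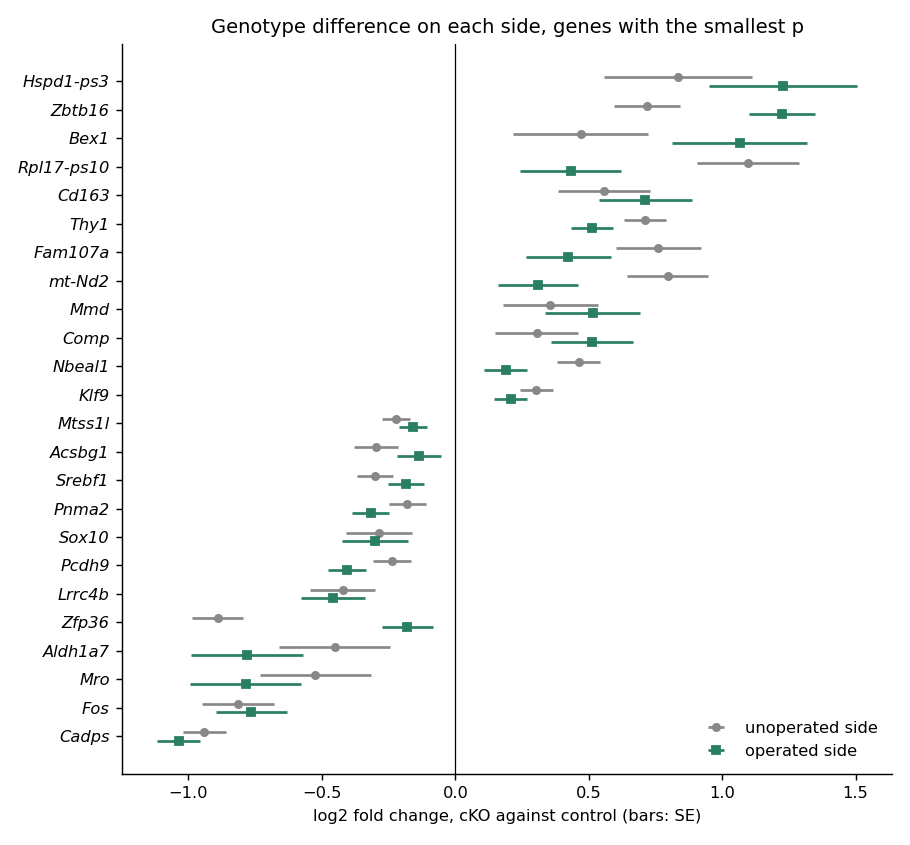
log2 fold change of cKO against control on the unoperated (grey circles) and operated side (green squares) for the 24 genes with the smallest p per mouse that met the naming rule; bars are SE. All 24 lie on the same side of 0 on both sides of the body, since genes were named only where the 4 cKO libraries did not overlap the 4 control libraries.

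Other immediate early genes were examined as a list. Of 19 tested, 3 were lower at an unadjusted p under 0.05 (*Fos*, *Egr1* and *Egr3*), against 2.18% of all genes, and none higher; 14 were below 0. The count of lower genes was 5 without control mouse 2 or without cKO mouse 2 and 2 without cKO mouse 1. Without cKO mouse 2, 3 were higher (*Egr4*, *Fosb* and *Nr4a3*), and 1 gene was higher when either control mouse was left out. The median of -0.09 was between -0.17 and -0.04 with 1 mouse left out. *Egr1* was at 21.0, 14.3, 19.2 and 13.2 CPM in control and 9.03, 7.38, 13.4 and 9.34 CPM in cKO, with overlap at the highest cKO library (-0.78, SE 0.23). *Egr3* was at 3.46 to 5.96 CPM against 1.69 to 3.13 CPM, without overlap (-1.09, SE 0.30, edgeR adjusted p = 0.808). *Nr4a1*, an orphan nuclear receptor of the same class, had a fold change of -0.37 (SE 0.15), and *Fosb* one of 0.28 (SE 0.35).

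Of 8 neuropeptide genes grouped for their link to nerve injury, *Gal* and *Adcyap1* were higher in cKO on the operated side. Not all 8 rose after the surgery. *Sst* was lower on the operated than on the unoperated side in every mouse. It went from 8.33 and 9.92 CPM to 5.45 and 5.98 CPM in control, and from 10.6 and 6.38 CPM to 7.11 and 4.58 CPM in cKO. *Gal*, which encodes galanin, was at 17.8 and 17.9 CPM on the unoperated side and 33.1 and 32.2 CPM on the operated side of the controls, and at 16.5 and 16.9 CPM and then 57.7 and 50.9 CPM in cKO. On the unoperated side cKO was just below control, and on the operated side it was above both control mice. The fold change was -0.09 (SE 0.08) on the unoperated side and 0.73 (SE 0.08) on the operated side. The test of the difference between sides gave 0.83 (SE 0.12, unadjusted p = 0.000112, adjusted p = 1 by edgeR). *Adcyap1*, the gene of the neuropeptide PACAP, was at 102, 97.9, 137 and 153 CPM in control and 111, 94.9, 229 and 189 CPM in cKO, with a difference between sides of 0.49 (SE 0.16). Per mouse, 3 of the 8 were higher at an unadjusted p under 0.05 (*Gal*, *Adcyap1* and *Vip*), against 3.8% of all genes, and 3 were below 0. The median was 0.44, and 0.22 without control mouse 1. On the operated side 3 were higher at an unadjusted p under 0.05 (*Gal*, *Adcyap1* and *Cck*), against 5.16% of all genes. On the unoperated side 1 was lower and none higher, against 1.83% and 3.4% of all genes. *Vip* was below 0.34 CPM in every library, so its fold change rests on few counts.

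The difference between sides was tested for all 22160 genes. No gene passed an adjusted p under 0.05 by edgeR (0%), also with the mouse as a block, while 618 had the higher (2.79%) and 286 the lower value on the operated side (1.29%) at an unadjusted p under 0.05, 904 in all (4.08%); DESeq2 called 12. The 4 genes with the smallest p whose operated-side difference was the higher were *Gal*, *Myct1*, *Scgn* and *Zfp36*. *Scgn* encodes secretagogin, a calcium-binding protein of neuroendocrine cells. It was at 1.20 to 1.61 CPM in every control library and at 1.40, 1.61, 4.12 and 3.67 CPM in cKO, so that only the operated sides of cKO stood apart (difference 1.52, SE 0.28, unadjusted p = 0.000749). *Myct1*, an endothelial gene, crossed over, at 1.61, 1.94, 1.20 and 1.09 CPM in control and 0.72, 0.71, 1.81 and 2.06 CPM in cKO (2.06, SE 0.30). The 4 genes in the other direction were *Wdr72*, *Fam83c*, *AI593442* and *Tmem64*. *Wdr72* was at 6.48 to 8.77 CPM in control and at 6.23, 7.83, 3.30 and 3.93 CPM in cKO (-1.17, SE 0.25), with both operated sides of cKO below the other 6 libraries.

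*Chrna3* and *Slc5a7* were singled out after their values were seen. *Chrna3*, a nicotinic receptor subunit, was at 16.3, 7.69, 15.8 and 8.94 CPM in control and 17.2, 7.04, 73.8 and 26.3 CPM in cKO. In both genotypes mouse 1 was above mouse 2, and only the operated sides of cKO exceeded 18 CPM. *Slc5a7*, the choline transporter, was at 1.04 to 1.59 CPM in control and 1.25, 1.12, 4.86 and 2.78 CPM in cKO. The fold changes on the operated side were 2.01 (SE 0.62) and 1.82 (SE 0.29). *Chat*, which makes acetylcholine, was too scarce to tell whether it shared the pattern. Its level (unoperated, then operated sides) was 0.159, 0.112, 0.068 and 0.112 CPM in control and 0.048, 0.051, 0.144 and 0.087 CPM in cKO.

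Genes that mark injured neurons varied between the mice of a genotype. *Atf3* was at 11.9 and 11.5 CPM on the unoperated side and 125 and 82.4 CPM on the operated side of the controls, and at 12.3 and 10.2 CPM and then 42.3 and 179.7 CPM in cKO. The operated side exceeded the unoperated side in each of the 4 mice, and the 2 cKO mice lay outside the range of the controls in opposite directions, with a fold change on the operated side of 0.09 (SE 0.54). *Sox11*, a growth-associated transcription factor, ordered the operated sides the same way, at 16.2 and 13.9 CPM in control and 11.1 and 21.9 CPM in cKO. Of 12 regeneration-associated transcription factors tested, none had an unadjusted p under 0.05 (median 0.08), but 4 were higher without cKO mouse 1 and 2 lower without cKO mouse 2. Of 24 growth and injury effector genes, 3 were higher and 1 lower at an unadjusted p under 0.05 (3.8% and 2.18% of all genes). There were none without control mouse 2, 6 higher and 0 lower without cKO mouse 1, and 3 higher and 6 lower without cKO mouse 2. Their median of 0.07 was 0.30 without cKO mouse 1 and -0.23 without cKO mouse 2.

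Genes encoded in the mitochondrial genome were the list with the largest share at an unadjusted p under 0.05. All 15 were above 0 per mouse, 14 of them at an unadjusted p under 0.05 (3.8% of all genes) and 6 without overlap (2.42% of all genes), and the median was 0.54. The count was 15 on the unoperated side and 0 on the operated side, and per mouse it was 8 without either cKO mouse. *mt-Nd2*, a subunit of respiratory complex I, was at 373, 452, 413 and 555 CPM in control and 769.8, 662, 593 and 608 CPM in cKO. All cKO libraries were above all control libraries, and the fold change was 0.54 (SE 0.12, edgeR adjusted p = 0.808). The median was 0.78 on the unoperated and 0.28 on the operated side. It was 0.33 without control mouse 1 and 0.81 without control mouse 2, whose operated side had the highest level of the controls. The summed share of mitochondrial counts was 0.544% to 0.802% in control and 0.803% to 0.985% in cKO. Mitochondrial shares also vary with RNA quality and tissue handling, whose part in the result was not tested.

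Of 78 cytosolic ribosomal protein genes tested, 77 were above 0, with a median of 0.12. At an unadjusted p under 0.05, 26 were higher (3.8% of all genes), and 27 were higher without overlap (2.42% of all genes). The operated side of control mouse 1 was the lowest library in 65 of the 78, as it was in 3362 of all 23209 genes. *Rps14* was at 202 to 272 CPM in control and 288 to 297 CPM in cKO (0.37, SE 0.10), though the overlapping *Ndst1* held counts equal to 61.2% of its own. The count at an unadjusted p under 0.05 was 4 without control mouse 1, 36 without control mouse 2, 7 without cKO mouse 1 and 3 without cKO mouse 2. The 80 genes tested in the oxidative phosphorylation list had a median of 0.01, with 1 higher at an unadjusted p under 0.05 (10 without control mouse 2), and the 37 proteasome genes a median of -0.02 with none (2 lower without control mouse 1).

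For interferon-stimulated genes, 1 control library was far above the rest and the summed levels of the genotypes overlapped. Of 25 tested, 24 were below 0 and 7 had an unadjusted p under 0.05, all lower (2.18% of all genes were), with a median of -0.54 that was -0.89 on the operated and -0.03 on the unoperated side, where none had an unadjusted p under 0.05. *Ifit3*, an antiviral effector, was at 15.8, 11.8, 26.8 and 80.6 CPM in control and 13.7, 15.1, 14.4 and 22.0 CPM in cKO. *Isg15*, a ubiquitin-like modifier, was at 6.0, 4.72, 9.49 and 25.7 CPM against 4.02, 5.00, 5.05 and 8.15 CPM. The operated side of control mouse 2 was the highest library in 24 of the 25 genes, as in 12.5% of all genes. Without control mouse 2 the median was -0.07 and 1 gene was lower at an unadjusted p under 0.05, without control mouse 1 it was -0.90 with 21, and without cKO mouse 1 it was -0.48 with none lower and 1 higher.

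Of 8 neutrophil markers tested, 7 had an unadjusted p under 0.05, all higher in cKO (3.8% of all genes were), with a median of 0.91 that was 0.40 without cKO mouse 1. The count was 1 without control mouse 2 and 4 without cKO mouse 1, and all 8 were highest in the operated side of cKO mouse 1. *S100a9*, a calprotectin subunit, was at 81.8 to 125 CPM in control and 181, 137, 325 and 158 CPM in cKO, without overlap (0.86, SE 0.26). Of 22 cell cycle genes, 5 were higher and 1 lower per mouse at an unadjusted p under 0.05, against 3.8% and 2.18% of all genes. On the operated side 9 were higher and 1 lower, against 5.16% and 2.43% of all genes there. Their summed level on the operated side overlapped, at 292 and 310 CPM in control and 304.5 and 325 CPM in cKO, and 15 of the 22 were highest in cKO mouse 1. The count of higher genes per mouse was 3 without control mouse 2 or without cKO mouse 1 and 8 without control mouse 1. *Mki67*, a marker of dividing cells, was at 5.69 to 9.71 CPM in control and at 7.20, 9.88, 18.4 and 14.1 CPM in cKO, with both operated sides of cKO well above all other libraries and 1 unoperated side just above the control range. The operated side of cKO mouse 1 held both the most *Mki67* and the most neutrophil markers, whose part in the *Mki67* result was not tested.

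**Figure D4:**
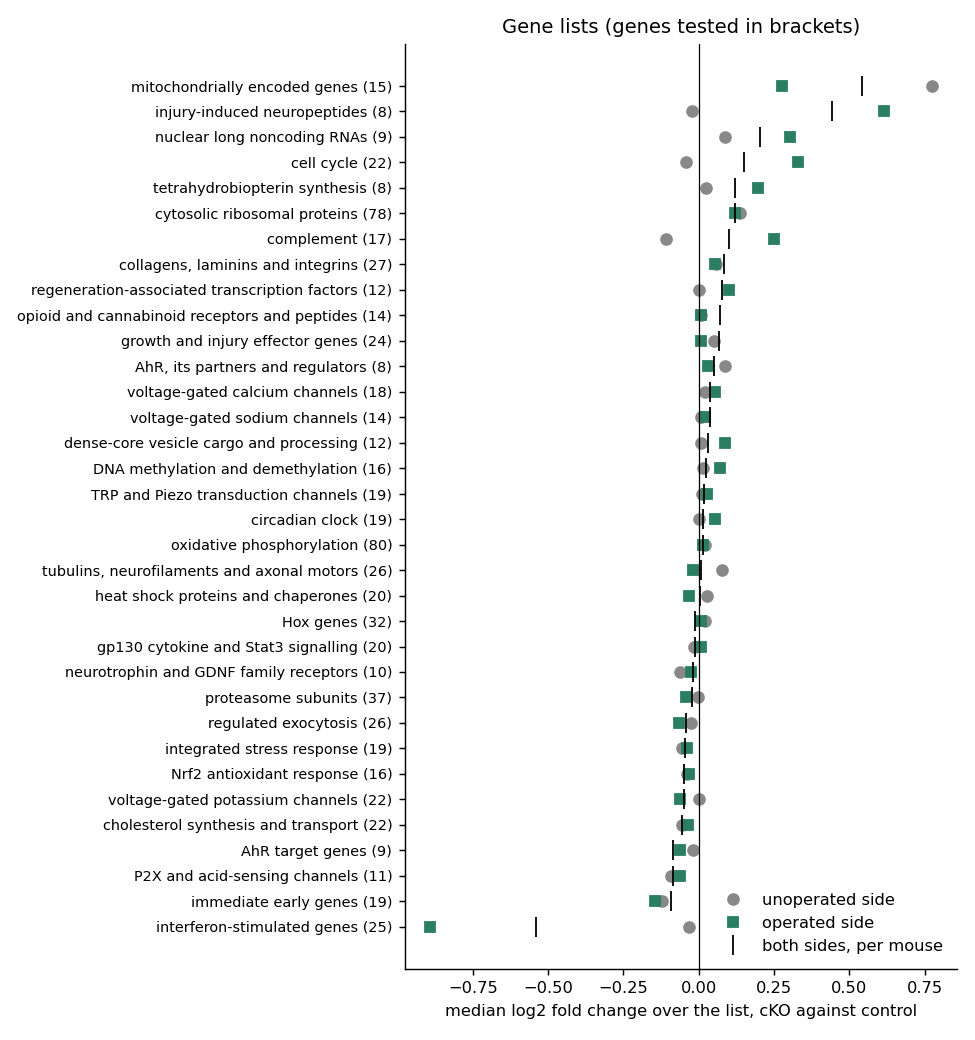
Median log2 fold change of cKO against control for 34 gene lists, on the unoperated side (grey circles), the operated side (green squares) and per mouse (black ticks). The medians of most lists lay near 0; mitochondrially encoded genes (0.54 per mouse) and interferon-stimulated genes (-0.54) were the extremes, and single mice moved both.

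Ion channels and receptors of sensory neurons were examined by class. The counts are per mouse at an unadjusted p under 0.05, at which 2.18% of all genes were lower and 3.8% higher. Of 22 voltage-gated potassium channel genes, 5 were lower at an unadjusted p under 0.05 (2.18% of all genes) and none higher, with a median of -0.05; the count was 0 without control mouse 2 and 1 without cKO mouse 1. *Kcns1*, a modulatory subunit linked to pain sensitivity, was at 88.0 to 110.0 CPM in control and 68.0 to 94.5 CPM in cKO (-0.29, SE 0.09). Of 11 P2X and acid-sensing channel genes, 3 were lower, and 1 without control mouse 1 or without cKO mouse 1. *Asic1*, a proton-gated channel, was at 119 to 131 CPM against 102, 121, 82.6 and 92.1 CPM (-0.36, SE 0.08, edgeR adjusted p = 0.808), and *Asic3* at 107 to 128 CPM against 94.8 to 107 CPM (-0.23, SE 0.07). Of 14 opioid and cannabinoid genes, 3 were lower: *Oprl1*, the nociceptin receptor (-0.34, SE 0.11), *Faah*, which degrades anandamide (-0.25, SE 0.08), and *Pdyn*, below 0.6 CPM throughout. That count was 0 without control mouse 2 and 1 without control mouse 1 or without cKO mouse 1. Among 14 sodium channels 1 was lower (*Scn1a*, -0.16), which did not pass without control mouse 2, cKO mouse 1 or cKO mouse 2, and without cKO mouse 2 there were 5 higher. Of 19 TRP and Piezo channels 2 were lower, and 0 without control mouse 2 or without cKO mouse 2; 2 were higher in the latter case. *Trpv1*, the capsaicin receptor, was at 197, 146, 191 and 166 CPM in control and 168, 159, 396 and 222 CPM in cKO, with both operated sides of cKO highest (0.79 on that side, SE 0.25, unadjusted p = 0.0143 by edgeR).

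Peptidergic nociceptor markers included 3 of 9 that were higher at an unadjusted p under 0.05 (3.8% of all genes were), among them *Tac1*, the substance P gene, at 142 to 172 CPM in control and 165, 166, 285 and 202 CPM in cKO (0.40, SE 0.10) and *Calca*, the gene of CGRP (0.22, SE 0.06). The count was 7 without cKO mouse 2, the list's median of 0.22 was 0.12 without cKO mouse 1, and 7 of the 9 were highest in the operated side of cKO mouse 1. Markers of large-diameter and proprioceptive neurons lay the other way on that side, with an operated-side median of -0.23, 5 of 10 lower at an unadjusted p under 0.05 (2.43% of all genes on that side) and none higher. *Whrn* was at 34.4 to 46.1 CPM in control and 28.3, 38.4, 19.9 and 28.0 CPM in cKO, and *Runx3*, a proprioceptor transcription factor, at 16.0 to 20.3 CPM against 13.6, 17.8, 10.03 and 13.7 CPM. Per mouse 2 of the 10 were lower, with 0 without control mouse 2 or without cKO mouse 1 and 4 without cKO mouse 2. The part of this marker balance in the neuropeptide and channel results was not tested. Of 19 circadian clock genes tested, none had an unadjusted p under 0.05 (median 0.01), and 2 were higher without cKO mouse 1.

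Muscle genes were high in 1 cKO library. *Acta1*, skeletal muscle actin, was at 13.3, 37.0, 2.84 and 0.62 CPM in control and 48.3, 2.60, 3.11 and 286 CPM in cKO. The model *Gm20388* overlaps it, so its reads are uncertain. The genotypes overlapped and the fold change was 2.66 (SE 0.92, unadjusted p = 0.0314 by edgeR). Over the 8 muscle markers the median of 2.49 was 0.48 without cKO mouse 2. Without cKO mouse 1, so that this library stood alone for the operated side of cKO, 135 genes were called there, 134 of them higher. *Cacna1s*, the muscle calcium channel, and *Cox6a2*, the muscle form of a complex IV subunit, were members of other lists that followed the same library, at 29.9 and 13.5 CPM in it.

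A pair of genes below the level set for naming had the smallest p per mouse after *Cadps* and were singled out after their values were seen. *Dpy19l2*, known for its role in sperm head formation, was at 0.04 to 0.07 CPM in the controls and 0.64 to 0.97 CPM in cKO. *Pcdh20*, a protocadherin, was at 0.13 to 0.19 CPM against 0.87 to 1.66 CPM. Neither overlapped, with fold changes of 4.02 (SE 0.36) and 3.00 (SE 0.24). Per mouse, neither passed an adjusted p under 0.05 by edgeR. Both were among the 7 genes (4 higher, 0.0181%, and 3 lower, 0.0135%) that edgeR called with the 8 libraries taken as replicates. That fit counts the 2 sides of a mouse as separate replicates. In the other ganglia the levels varied by mouse: *Dpy19l2* was at 1.01 and 0.67 CPM in naive cKO mice 2 and 3 but at 0.05 CPM in naive cKO mouse 1, and *Pcdh20* at 2.03 CPM in naive control mouse 2.

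The same genotypes were compared in naive ganglia, injured ganglia and cultured neurons, which were fitted separately; the naive libraries and the neurons were of female mice, and the injured ganglia of 2 females and 1 male per genotype. *Cadps* had fold changes of -0.81 (SE 0.09, edgeR adjusted p = 0.00739) in naive ganglia, -0.82 (SE 0.09, adjusted p = 0.0059) in injured ganglia and -0.77 (SE 0.12, adjusted p = 0.197) in neurons. *Thy1* had 0.86, 0.79 and 1.01. Of the 24 named genes, these were the 2 called in naive and in injured ganglia. The sign was that of the sham comparison for 13 of 24 in naive ganglia, 15 in injured ganglia and 9 in neurons. *Zbtb16* was 0.51 in naive, -0.95 in injured ganglia and -0.05 in neurons, *mt-Nd2* 0.02, 0.00 and -0.17, and *Gal* -0.03, -0.05 and 0.72. These sets have other mice, and naive and injured ganglia come from another table, so the differences between sets were not tested.

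**Figure D5:**
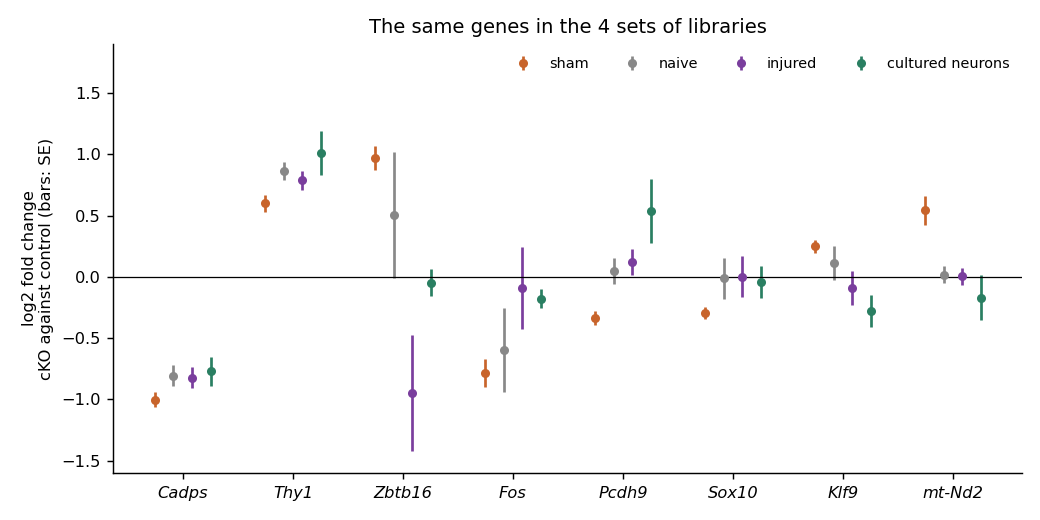
log2 fold change of cKO against control with SE for 8 genes in sham, naive and injured ganglia and cultured neurons. *Cadps* lay between -1.0 and -0.77 and *Thy1* between 0.60 and 1.01 in the 4 sets, whereas *Zbtb16* ranged from -0.95 to 0.97.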

How the data were processed

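Counts per gene were deposited by the authors as whole numbers, 1 table for the sham ganglia and neurons and another for the naive and injured ganglia; per the submitters' processing notes, Trim Galore, HISAT2, featureCounts and mm10 were used, with no versions given. The FPKM values the authors deposited divide each count by the gene's whole span (within 0.1% for 100.0% of 16400 genes compared) and served as an alternative. Libraries were stranded (TruSeq mRNA), per the labels. Of 55401 genes, 99.53% matched a symbol, and coordinates are GENCODE M21 on GRCm38.

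Genes were kept with filterByExpr (minimum count 10, total 15), normalized by TMM and tested with edgeR 4.0.16 (R 4.3.3, quasi-likelihood, two-sided, Benjamini-Hochberg, called at an adjusted p under 0.05). DESeq2 1.42.0 and limma 3.58.1 were alternatives. In simulated data of this size, unadjusted p-values were well calibrated. Calls at an adjusted p there included more unchanged genes of large spread than the nominal share. A single call is therefore weaker than its adjusted p reads. The simulated counts were drawn from a model, so they cannot show that the p-values of the real libraries are calibrated. Several of the real libraries stood apart, and calibration in them was not tested.

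Named genes were *Ahr*, *Thy1* and *Cadps*; any calls; the 12 with the smallest p per direction with a mean of at least 1 CPM, no overlap of the 4 cKO and 4 control libraries, no clone or model name and no sex linkage; 4 per direction for the difference between sides; and 2 per list. The members and lists were chosen with earlier results of these data known. Sides of a mouse come from 1 animal; their deviations from group means correlated at -0.184 in cKO and 0.295 in control mice. Within each genotype and side, the libraries of mouse 1 and mouse 2 were not copies of each other. Other pairs were not checked for copies. The values of 1 gene of the exocytosis list are not reported here.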

Additional observations from a re-analysis of the deposited data

Results flagged for a closer look

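Effects of the genotype that pointed in opposite directions in every sample of 2 groups were looked for among the named genes. They were found in 9 of 384 pairs of groups. Most of these genes were named from the same values, and the share over all genes was not computed, so the count is no test. *Gal*, *Myct1*, *Tmem64* and *Fam83c* were among those named by the smallest p for the difference between sides, a choice that favours opposite directions. On the operated against the unoperated side they were *Gal* (a difference of 0.83), *Cfp* (1.60), *Myct1* (2.06), *Tmem64* (-0.43) and *Fam83c* (-1.41); edgeR's test of each difference gave an adjusted p of 1. *Cfp*, the complement regulator properdin, was at 5.70, 3.59, 3.74 and 3.21 CPM in control and 3.44, 3.01, 7.995 and 6.67 CPM in cKO.

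Between sham ganglia and another set, the fold change in the other set was 0.34 for *Zfp36*, -0.28 for *Klf9* and -0.27 for *Ccnb2* in neurons and -0.28 for *Rps27* in naive ganglia, against -0.53, 0.25, 0.86 and 0.34 in sham ganglia. These 4 differences were not tested. *Rps27* was at 1.16 to 1.61 CPM in naive ganglia and at 84.9 to 125 CPM in sham ganglia, so those values compare very unlike levels across tables counted separately.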

How the results depend on the processing

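Each count of calls was recomputed by setting. Per mouse (0 calls), DESeq2 gave 43, no filter 8, 8 libraries as replicates 7, limma-voom with a random mouse 5, and leaving out 1 mouse 0 to 5. On the operated side (1 call), DESeq2 gave 153, no filter 626, that side's libraries alone 0, and leaving out 1 mouse 0 to 135. On the unoperated side (0 calls), DESeq2 gave 31, no filter 59, that side alone 1, an adjusted p under 0.1 2, and leaving out 1 mouse 0 to 1. For the difference between sides (0 calls), DESeq2 gave 12, no filter 144, and leaving out 1 mouse 0 to 41. RLE factors, at least 10 counts in every sample and the deposited FPKM, where run, kept the counts at 0 or 1.

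Replicate numbers pair the genotypes by number alone (correlation 0.176). With the replicate number as a block, 1 gene was called per mouse and 0 on either side; with the mouse as a block, 0 for the difference between sides. Crossing the cKO pairs, chosen after seeing the data, gave 1. A robust spread estimate, also chosen after seeing the data, called 1 gene per mouse (*Cadps*, adjusted p = 0.0451 by edgeR), 1 on the operated side, 2 on the unoperated side and 0 for the difference. List medians and counts without single mice were added after seeing the data too. Those fits have 3 mice, with 1 of them alone in its genotype. Their shares over all genes differ from those of the full fit, so their counts cannot be set against the shares printed here.

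Over 110 gene results, 1355 of 1402 recomputed values kept direction and side of the threshold, 40 passed it newly and 5 no longer passed. In the main fits only *Cadps* on the operated side passed, so keeping the side of the threshold mostly meant staying uncalled. The genes named for no overlap between genotypes could also hardly change direction. The sign of *Ahr* on the operated side (0.03) turned without control mouse 1 (-0.135) and without cKO mouse 2 (-0.025). That fold change ranged from -0.135 to 0.184 over single mice left out, and the cause was not tested. *Cadps* ranged from -1.06 to -0.89 per mouse, with edgeR, DESeq2 or limma adjusted p-values of 1.53e-44 to 0.847. With 2 mice per genotype, the spread between mice is itself poorly known in every comparison.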
